A study of Mus musculus with 20 samples.

Results

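Lean adipocytes of 39-week-old and 31-week-old mice that never received a high-fat diet were compared, 4 TRAP–seq libraries of the 20 in the series. The libraries were taken by their labels, 2 CCC mice (39 weeks) and 2 long-arm CC mice (CC_l, 31 weeks), all male AdipoERCre x NuTRAP mice. In these mice Cre is driven by the adiponectin gene and is switched on by tamoxifen, which all groups had received before the diets began, so that ribosomes of adipocytes carry a GFP tag and can be pulled down from lysed epididymal adipose tissue (epiAT) together with the mRNA they are translating. CC_l mice had low-fat chow up to sampling. CCC mice had the same low-fat chow for the same period and then 8 weeks of a standard chow as the control for weight loss (WL), so that age and the change of chow cannot be told apart. The same step had been taken earlier in life by the short arm of the study, with 3 C mice of 18 weeks and 3 CC_s mice of 26 weeks, which served as the only outside reference. The deposited values are read counts per gene, given below as CPM, a unit that scales each library to the same total, and the 4 libraries held 30146952 and 16062931 counts in CC_l replicates 1 and 2 and 17015346 and 14903301 in CCC replicates 1 and 2.

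White adipocytes store fatty acids as triglyceride and release them again under hormonal control. In an adipose depot they sit among progenitor cells and fibroblasts that lay down collagen, capillaries and resident macrophages, and the epididymal depot is covered by mesothelium and lies against the epididymis and testis. Adipocytes have a circadian clock, in which Arntl and Clock drive transcription of repressors such as the Per, Nr1d and Bhlhe genes. A ribosome pulldown enriches adipocyte mRNA but leaves a remainder from the other cells of the lysate, and in such bulk samples fewer cells of a type and less RNA per cell cannot be told apart.

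Before any comparison, 2 of the 4 libraries stood apart from the rest. CC_l replicate 1 carried germ cell mRNA. The 90 genes of a germ cell list summed to 10234 CPM in it, against 173 CPM in CC_l replicate 2 and 122 and 159 CPM in the CCC mice, with no gene of the list at 0 in the first library and 29, 37 and 31 at 0 in the others. Prm2, a protamine that packs sperm DNA, was at 1067 CPM in CC_l replicate 1 and at 4.58, 0.956 and 2.96 CPM in the other 3 libraries. Tnp2, a transition protein of spermatids, was at 754 CPM against 0.524, 0.717 and 2.31 CPM, and Ldhc, the lactate dehydrogenase of sperm, was at 415 CPM against 1.18, 0.478 and 0.878 CPM. Prm1 was at 655 CPM and the sperm sheath protein Akap4 at 142 CPM in that library, and neither exceeded 2.10 CPM in the other 3. CCC replicate 2 stood apart in another way. Its 18 adipocyte identity genes summed to 62907 CPM, against 109820, 130830 and 118630 CPM in CC_l replicates 1 and 2 and CCC replicate 1, although no gene of that list was at 0 in any of the 4. Nuclear-retained RNA such as Malat1 summed to 28540 CPM in it (3416, 10308 and 7463 CPM in the others), mitochondrially encoded RNA to 91716 CPM (19389, 13878 and 15028 CPM) and mesothelial markers to 764 CPM (140, 143 and 233 CPM). The nuclear-retained RNA was not a matter of that mouse alone. All 12 genes of its list had a positive log2 fold change in CCC against CC_l (48.1% of all tested genes had one). Their median was 1.23, and 0.64 without CCC replicate 2. List medians and called genes are therefore given below also without CC_l replicate 1 or CCC replicate 2 where that moves the value by over 1.5 times, and the part of these admixtures in each result was not tested further.

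**Figure D1:**
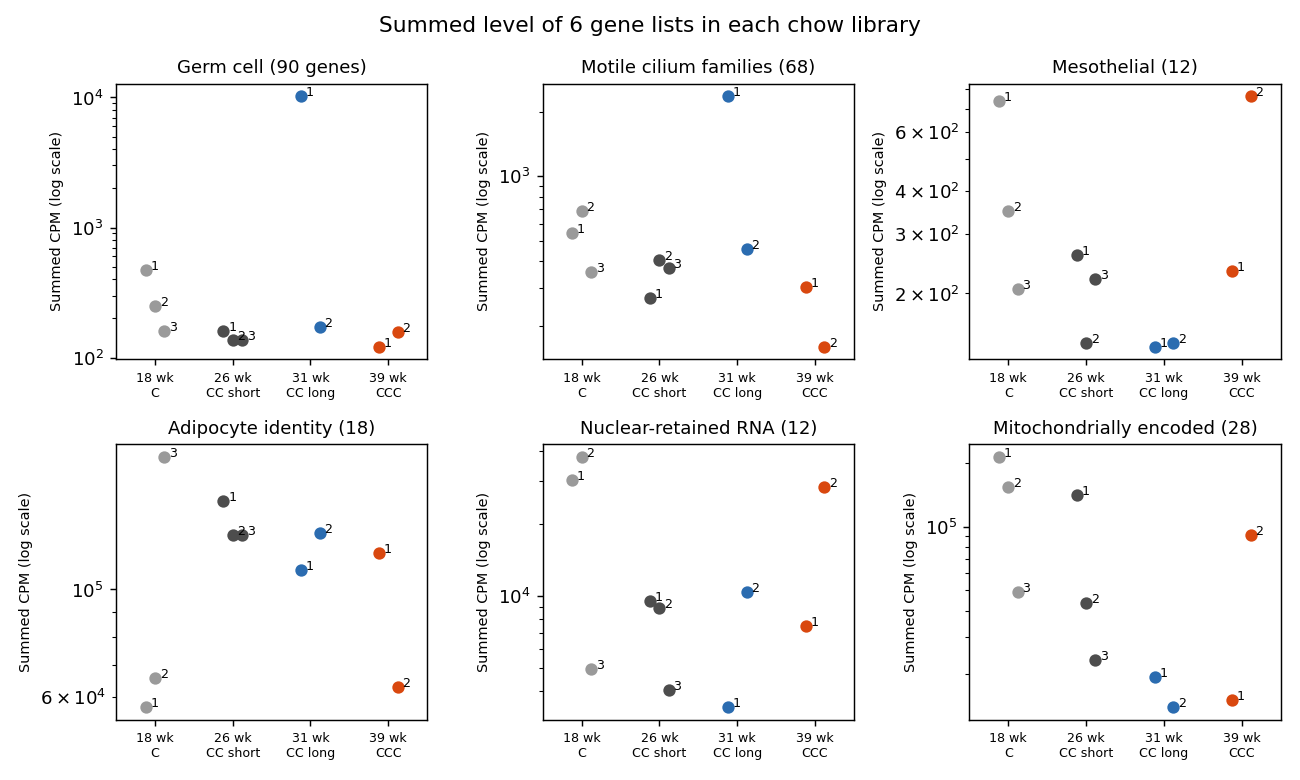
Summed CPM of 6 gene lists (log scale) in each of the 10 chow libraries, 1 point per mouse with its replicate number, by age group. The 31-week replicate 1 is alone in germ cell RNA (10234 CPM) and has the highest cilium RNA, and the 39-week replicate 2 has low adipocyte identity RNA (62907 CPM) with high mesothelial, nuclear and mitochondrial RNA.

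To set the germ cell transcripts aside, the 90 genes of the list and 1473 genes whose level followed the list over the other 16 libraries (Pearson r of at least 0.7) were put apart, 1563 of 21464 tested genes. Differentially expressed genes (DEGs) were called by the criteria of the study, a nominal p under 0.01 and a log2 fold change of at least 1 in either direction, with edgeR's quasi-likelihood test. This gave 572 DEGs, of which 162 were higher in CCC (0.755% of tested genes) and 410 were lower (1.91%). After the germ cell genes were set aside, 158 higher and 261 lower DEGs were left, the latter 1.31% of the genes still in play. No gene passed a Benjamini-Hochberg adjusted p under 0.05 by edgeR (lowest adjusted p = 0.311), while 2472 genes had an unadjusted p under 0.05 and DESeq2 gave 492 adjusted calls. Every DEG named below is thus a nominal call, with an edgeR adjusted p of 0.311 to 0.362. Without CC_l replicate 1, 137 of the 162 higher DEGs kept a log2 fold change of at least 1, but 19 were called again, and 190 of the 261 lower DEGs kept one of -1 or below, with 73 called again. Without CCC replicate 2 the counts were 112 with 26 called again and 258 with 41 called again. The median log2 fold change of all tested genes was -0.05.

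The called genes that were higher at 39 weeks included genes with similar values in both mice of a group. Ythdf3, a reader of methylated adenosine in mRNA (chr3:16183212-16217037, plus strand, mm10), was at 34.4 and 35.6 CPM in the CC_l mice and at 104 and 94.6 CPM in the CCC mice, a log2 fold change of 1.504 ± 0.31 (SE, edgeR adjusted p = 0.311). Its 2 groups did not overlap, and the value moved no further than 1.44 to 1.57 when each mouse was left out. Dock1, an exchange factor for Rac, was at 20.9 and 20.6 CPM in CC_l and at 54.9 and 58.6 CPM in CCC (log2 fold change 1.45 ± 0.34). Zfp449, a zinc finger transcription factor, was at 4.57 and 5.89 CPM against 19.7 and 15.7 CPM (1.76 ± 0.40). Tmem68, an acyltransferase of the endoplasmic reticulum, was at 3.96 and 7.20 CPM against 23.5 and 28.7 CPM (2.23 ± 0.53). In these 4 genes the ages did not overlap, which the rule for naming them required, and the CCC mice lay close to each other.

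In 6 further genes with low p values CCC replicate 2 was above replicate 1. Ackr3, a scavenging receptor for the chemokine Cxcl12, was at 14.5 and 10.1 CPM in CC_l and at 43.9 and 111 CPM in CCC (log2 fold change 2.65 ± 0.57). Jag1, a Notch ligand, was at 28.03 and 47.5 CPM against 94.8 and 267 CPM (2.26 ± 0.52). Sgk3, a kinase of endosomes that acts in phosphoinositide signalling, was at 11.7 and 13.8 CPM against 33.7 and 60.5 CPM (1.88 ± 0.44). Without CCC replicate 2 their log2 fold changes were 1.84, 1.33 and 1.40, where the rule for naming them required at least 1. Osr1, a transcription factor of mesenchymal progenitors, was at 7.75 and 6.16 CPM against 17.3 and 56.6 CPM (2.41 ± 0.53, and 1.31 without CCC replicate 2). Lrrn4cl, which had the lowest p among the higher DEGs, was at 4.94 and 7.60 CPM against 17.5 and 31.9 CPM (1.98 ± 0.40), and the secreted olfactomedin-like protein Olfml2b was at 3.11 and 4.45 CPM against 15.7 and 23.8 CPM (2.39 ± 0.52).

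**Figure D2:**
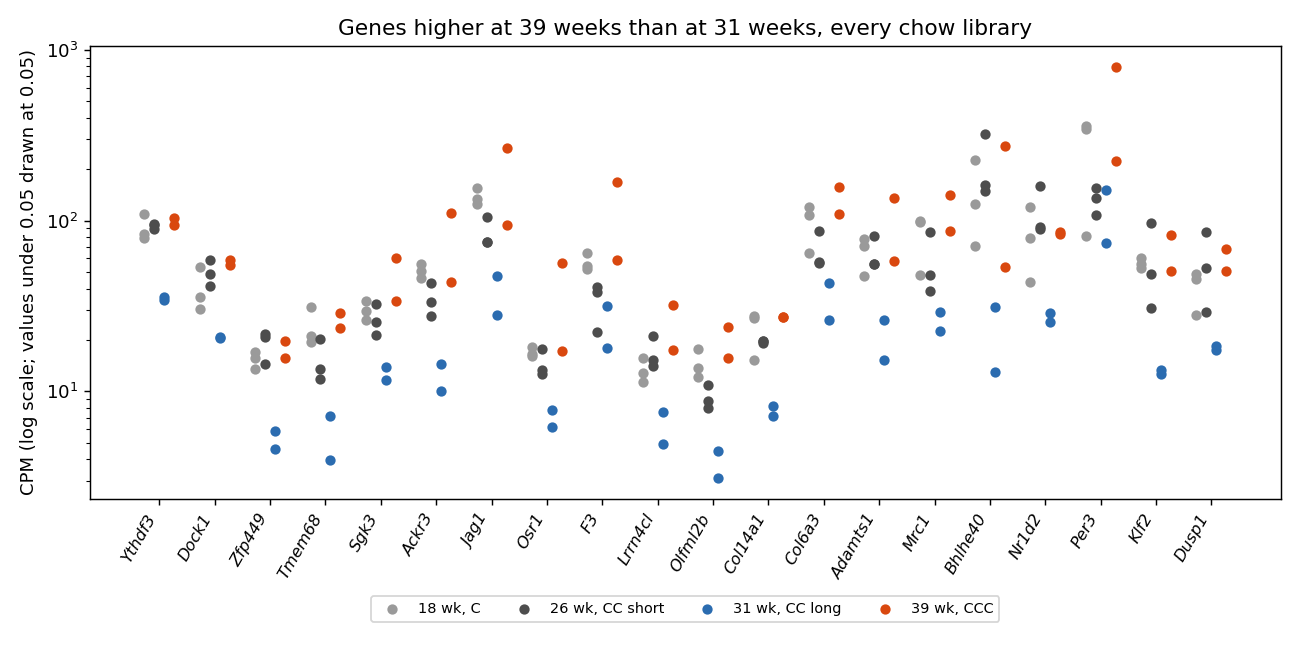
CPM (log scale) of 20 genes called higher at 39 than at 31 weeks in each of the 10 chow libraries, 1 point per mouse, coloured by age group. In each gene both 39-week points lie above both 31-week points, and for most genes the 31-week points also lie below those of the 18-week and 26-week mice.

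Markers of adipocyte progenitors and fibroblasts were higher at 39 weeks gene by gene, while their summed CPM overlapped between the ages. The list summed to 3512 and 6269 CPM in CC_l and to 5767 and 11895 CPM in CCC. All 17 tested members had a positive log2 fold change (48.1% of all tested genes had one), 16 of the 17 had both CCC mice above both CC_l mice (17.6% of all tested genes), and 3 were DEGs (0.755% of all tested genes were called higher). The same shares over all tested genes hold beside the counts of the lists below. The median was 1.59, and it was 1.34 without CC_l replicate 1 and 0.98 without CCC replicate 2. F3, the tissue factor that starts coagulation and marks a subset of progenitors, was at 18.1 and 31.7 CPM in CC_l and at 59.1 and 169 CPM in CCC (log2 fold change 2.198 ± 0.49, and 1.25 without CCC replicate 2). Cd55, a complement regulator of early progenitors, was at 15.3 and 17.2 CPM against 32.0 and 46.6 CPM (1.27 ± 0.40, and 0.98 without CCC replicate 2). Col1a1, a chain of fibrillar collagen, was at 33.9 and 73.3 CPM against 273 and 146 CPM (1.97 ± 0.63), with the higher value in CCC replicate 1. The abundant members were not called, for example Dcn, a collagen-binding proteoglycan, at 311 and 501 CPM against 691 and 1611 CPM (1.504 ± 0.70) and Col3a1 at 125 and 285 CPM against 554 and 739 CPM (1.66 ± 0.79).

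Among collagen genes, 23 of 28 had a positive log2 fold change and 4 were called, Col14a1, Col6a3, Col4a5 and Col1a1, with none called lower. The list median was 0.83, but 0.23 without CCC replicate 2, 1.32 without CCC replicate 1 and 0.60 without CC_l replicate 1. Col14a1, a collagen that associates with fibrils, was the steadiest, at 7.20 and 8.25 CPM in CC_l and 27.4 and 27.1 CPM in CCC (1.82 ± 0.46), and it lay between 1.72 and 1.92 whichever mouse was left out. Col6a3, a chain of the microfibrillar collagen around adipocytes, was at 26.1 and 43.0 CPM against 109 and 158 CPM (1.95 ± 0.60). Col4a5, a basement membrane chain, was at 2.93 and 4.06 CPM against 9.56 and 26.1 CPM (2.35 ± 0.73, and 1.45 without CCC replicate 2). Of 23 matrix proteases, their inhibitors and matrix glycoproteins, 21 were higher with a median of 1.14 (0.70 without CC_l replicate 1 and 0.82 without CCC replicate 2). The list summed to 2514.3 and 3647.8 CPM in CC_l and to 3228.5 and 3656.5 CPM in CCC, with overlap. Its 2 DEGs were Adamts1, a protease of the proteoglycan versican, at 15.2 and 26.1 CPM against 58.1 and 136 CPM (2.23 ± 0.50), and Fn1, fibronectin, at 45.0 and 42.7 CPM against 125 and 277 CPM (2.197 ± 0.73). In the TGF-beta, activin and BMP list 22 of 26 genes had a positive value, with a median of 0.66 that was 0.38 without CCC replicate 2, 0.43 without CC_l replicate 1 and 1.14 without CC_l replicate 2. In this list 1 gene was called, the co-receptor Tgfbr3, at 48.3 and 72.8 CPM against 99.7 and 291 CPM (1.69 ± 0.57, and 0.72 without CCC replicate 2).

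Immune genes formed the second group. The summed macrophage list was at 449 and 547 CPM in the CC_l mice and at 1106 and 966 CPM in the CCC mice, whereas the C mice reached at most 479 CPM and the CC_s mice 330 CPM. Of its 15 genes 14 had a positive log2 fold change, 11 did not overlap, and the median of 1.38 changed little without CCC replicate 2 (1.41) and more without CC_l replicate 1 (1.02). Mrc1, the mannose receptor of resident macrophages, was at 22.5 and 29.0 CPM in CC_l and at 86.9 and 141 CPM in CCC (2.15 ± 0.67), and Csf1r, the receptor for macrophage colony-stimulating factor, was at 22.1 and 18.9 CPM against 47.0 and 73.9 CPM (1.56 ± 0.50). Both were DEGs. The exception in sign was Aif1, at 203 CPM in CC_l replicate 1 and at 10.5, 30.6 and 9.11 CPM in CC_l replicate 2 and the CCC mice. Gpr34, a lysophospholipid receptor of macrophages and microglia, was at 1.04 and 0.917 CPM against 4.42 and 10.2 CPM (2.89 ± 0.84), and Ccl7, a monocyte chemokine, was at 2.56 and 11.9 CPM against 38.1 and 42.0 CPM (2.48 ± 0.74, but 1.75 without CC_l replicate 1 and 3.96 without CC_l replicate 2). Perivascular macrophage markers, with Mrc1 among them, leaned more on CCC replicate 2. All 11 were positive, with a median of 1.07 that was 0.45 without that mouse, and the sums were 291 and 389 CPM in CC_l and 422 and 794 CPM in CCC. Lipid-associated macrophage markers had a median of 0.25, with 9 of 14 positive and none called, and that median was -0.03 without CC_l replicate 1, 1.96 without CC_l replicate 2 and -0.22 without CCC replicate 1.

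In MHC class II presentation all 10 genes were at higher values in both CCC mice than in both CC_l mice, although none was called. The list summed to 454 and 358 CPM in CC_l and to 750 and 1108 CPM in CCC, with a median log2 fold change of 1.06 that stayed between 0.82 and 1.28 when each mouse was left out. H2-Aa, an alpha chain, was at 94.4 and 86.3 CPM against 192 and 286 CPM (1.40 ± 0.70, adjusted p = 0.455). H2-Ab1, its beta partner, was at 156 and 112 CPM against 271 and 394 CPM (1.31 ± 0.73). MHC class I genes had a median of 0.67 with 11 of 14 positive, and type I interferon response genes a median of 0.56 with 21 of 25 positive, and no member of either list was called. The class I median was 0.39 without CC_l replicate 1 and 0.34 without CCC replicate 2, and the interferon median was 0.23 without CC_l replicate 1 and 1.21 without CC_l replicate 2. The interferon list summed to 1825 and 4920 CPM in CC_l and to 6077 and 968 CPM in CCC, with overlap. Slfn4, an interferon-inducible gene of myeloid cells, had no count in CC_l and was at 2.03 and 2.53 CPM in CCC. Its group mean was at least 15.8-fold higher when 3 counts in each CC_l library are taken as the limit. F2rl3, a thrombin receptor, had no count in CC_l either and was at 0.239 and 1.87 CPM in CCC. Its group mean was at least 7.31-fold higher on the same terms, but CCC replicate 2 was 7.81 times replicate 1, which lay near the limit.

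Endothelial markers and most mesothelial markers had positive values as well, and both medians were lowest without CCC replicate 2. All 16 endothelial genes had a positive log2 fold change and 14 did not overlap, with a median of 1.26 that dropped to 0.62 without CCC replicate 2. Pecam1, the platelet and endothelial adhesion molecule, was at 43.2 and 46.2 CPM in CC_l and at 68.05 and 156 CPM in CCC (1.33 ± 0.74, adjusted p = 0.495), and no endothelial gene was called. Of 12 mesothelial genes 9 had a positive value, 7 did not overlap upwards and 4 were DEGs. The other 3, Krt8, Krt18 and Cdh1, were at lower values in both CCC mice than in both CC_l mice and were not called (log2 fold changes of -0.90, -1.63 and -3.24). Lrrn4 was at 6.16 and 5.11 CPM against 12.5 and 54.3 CPM (2.57 ± 0.63), Upk3b at 20.5 and 15.0 CPM against 29.8 and 128 CPM (2.15 ± 0.74), Gpm6a at 7.75 and 11.002 CPM against 21.9 and 68.3 CPM (2.27 ± 0.67), and the matrix protein Efemp1 at 45.1 and 54.5 CPM against 116 and 307 CPM (2.08 ± 0.53). In each of the 4 the second CCC mouse was far above the first, from 2.65 times for Efemp1 to 4.35 times for Lrrn4, and without it their log2 fold changes were 1.15 (Lrrn4), 0.74 (Upk3b), 1.22 (Gpm6a) and 1.22 (Efemp1). The list median of 1.85 was 0.37 without CCC replicate 2.

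**Figure D3:**
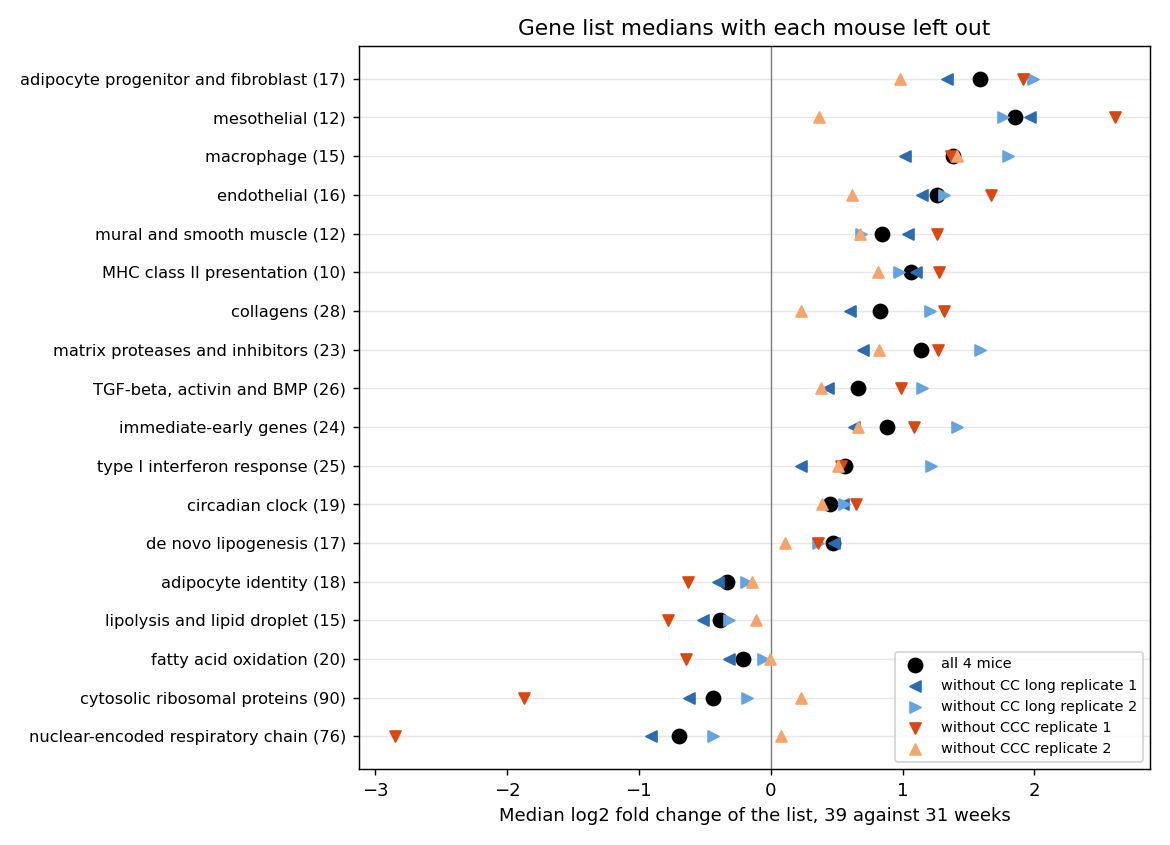
Median log2 fold change of 18 gene lists (number of tested genes in brackets), 39 against 31 weeks, with all 4 mice (black circles) and with each mouse left out (triangles). Progenitor, macrophage and MHC class II medians stay above 0.8 in every version, whereas the mesothelial median falls to 0.37, and the ribosomal and respiratory chain medians turn positive, without CCC replicate 2.

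Clock genes and immediate-early genes also had called members. Of 19 clock genes 15 had a positive log2 fold change, 9 did not overlap upwards and 3 were DEGs, Bhlhe40, Nr1d2 and Per3. Over all tested genes the shares were 48.1%, 17.6% and 0.755%. The list median was 0.45 (0.39 to 0.65 with each mouse left out). Bhlhe40, a repressor of the clock (chr6:108660629-108666925, plus strand, mm10), was at 12.99 and 31.1 CPM in CC_l and at 273 and 53.6 CPM in CCC (2.89 ± 0.71), and without CCC replicate 1 it was 1.28. Nr1d2, a nuclear receptor that represses Arntl (chr14:18204054-18239127, minus strand), was at 25.3 and 28.9 CPM against 85.7 and 82.9 CPM (1.64 ± 0.53), and stayed between 1.54 and 1.74. Per3, a period protein (chr4:151003652-151044665, minus strand), was at 74.3 and 150 CPM against 224 and 797 CPM (2.19 ± 0.72, and 1.00 without CCC replicate 2). The 2 CCC mice thus differed from each other in opposite ways for Bhlhe40 and Per3. Per2, not called, was at 13.4 and 28.9 CPM against 30.6 and 78.2 CPM (1.36 ± 0.50, adjusted p = 0.369). On the activating side, Arntl was at 6.34 and 15.2 CPM against 2.51 and 7.08 CPM (-1.16 ± 0.80), with overlap, and its partner gene Npas2 was at 1.16 and 1.96 CPM against 0.119 and 0.1098 CPM (-3.70 ± 1.41, adjusted p = 0.386), also not called. Per2, Arntl and Npas2 were chosen after their values had been seen. The time of day of sampling is not given in the sources used here.

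Immediate-early genes, which respond within minutes to stimuli and to tissue handling, had 21 of 24 members higher and 15 without overlap, with a median of 0.88 (0.63 to 1.41 with each mouse left out). Klf2, a transcription factor induced by flow in endothelium, was at 13.4 and 12.7 CPM in CC_l and at 50.5 and 82.1 CPM in CCC (2.35 ± 0.77). Dusp1, a phosphatase that switches off MAP kinases, was at 17.5 and 18.5 CPM against 50.5 and 67.7 CPM (1.72 ± 0.57). Both lists summed lower in CC_l than in any other chow group. The clock list was at 641 and 858 CPM in CC_l, at 1342 and 1844 CPM in CCC and between 1292 and 1532 CPM in the 6 short-arm chow mice, and the immediate-early list was at 348 and 513 CPM, at 690 and 934 CPM and between 564 and 1200 CPM.

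Promoter sequences were read for the called genes of these lists, since clock output genes carry known response elements. RefSeq windows (GRCm38.p6) of 250 bases before the transcription start were found for 16 of 19 clock genes and 20 of 24 immediate-early genes, and were searched on both strands for the E-box CACGTG, the D-box TTATGTAA and the cyclic AMP response element TGACGTCA. Of the called genes with a window, Per3 held 2 D-boxes, beginning 205 and 158 bases before the start, and Dusp1 held 1 cyclic AMP element and 1 E-box, beginning 143 and 126 bases before it. Nr1d2 and Klf2 held none of these letters in this window, and no window was found for Bhlhe40. Of 13879 tested genes with a window, 0.728% held the D-box, 2.66% the cyclic AMP element and 8.94% the E-box in at least 1 window. These matches describe the sequences and say nothing about binding in these mice. Both windows are shown 5′ to 3′ on the gene's strand, with the matched letters in capitals, Per3 from chr4:151044666-151044915 and Dusp1 from chr17:26508473-26508722, both on the minus strand.
Per3: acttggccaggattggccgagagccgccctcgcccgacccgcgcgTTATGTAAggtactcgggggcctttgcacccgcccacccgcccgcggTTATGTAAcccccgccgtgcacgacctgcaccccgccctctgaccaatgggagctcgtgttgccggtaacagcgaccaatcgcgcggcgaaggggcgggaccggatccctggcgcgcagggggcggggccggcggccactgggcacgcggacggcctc
Dusp1: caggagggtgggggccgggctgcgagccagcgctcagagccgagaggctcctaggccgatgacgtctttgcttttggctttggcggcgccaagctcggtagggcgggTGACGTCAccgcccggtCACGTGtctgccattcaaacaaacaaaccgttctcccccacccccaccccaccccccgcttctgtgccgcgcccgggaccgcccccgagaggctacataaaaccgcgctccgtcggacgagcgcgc

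Genes of adipocyte metabolism were mostly uncalled. None of the 18 adipocyte identity genes was a DEG and 8 were higher, with a median of -0.33 (-0.14 without CCC replicate 2 and -0.63 without CCC replicate 1). Adipoq, adiponectin, was at 4156 and 4354 CPM in CC_l and at 4850.0 and 1572 CPM in CCC (-0.41 ± 1.04), and Fabp4, the fatty acid binding protein of adipocytes, at 36084 and 34489 CPM against 47274 and 5652 CPM (-0.42 ± 1.24), so the low value in each case was that of CCC replicate 2. In de novo lipogenesis 11 of 17 genes had a positive value, with a median of 0.47 that was 0.11 without CCC replicate 2. Srebf1, the lipogenic transcription factor, was the only DEG of these 17 genes, at 183 and 167 CPM against 335 and 878 CPM (1.79 ± 0.57, and 0.93 without CCC replicate 2). Its target Fasn, fatty acid synthase, was at 2118 and 1861 CPM against 2125 and 1189 CPM (-0.26 ± 1.07). Gpat3, which makes the first step of triglyceride synthesis, was at 88.7 and 99.1 CPM against 144 and 324 CPM (1.32 ± 0.45, and 0.62 without CCC replicate 2). Lipolysis and lipid droplet genes (5 of 15 positive, median -0.39), fatty acid oxidation genes (7 of 20, -0.21) and tricarboxylic acid cycle genes (6 of 22, -0.20) had no called member. Without CCC replicate 2 these 3 medians were -0.11, -0.0029 and 0.12, and without CCC replicate 1 they were -0.78, -0.64 and -0.75. Those of fatty acid oxidation and of the tricarboxylic acid cycle were both -0.31 without CC_l replicate 1 and were -0.06 and -0.06 without CC_l replicate 2.

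All 76 tested nuclear-encoded subunits of the respiratory chain had a negative log2 fold change, and none was called. Their median was -0.69, but -2.85 without CCC replicate 1 and 0.08 without CCC replicate 2, and the summed list was at 43870 and 60406 CPM in CC_l and at 56890.0 and 8220 CPM in CCC, so the low values were those of a single mouse. The 90 cytosolic ribosomal protein genes had a median of -0.44 that was 0.23 without CCC replicate 2 and -1.87 without CCC replicate 1. Among stress genes, Nfe2l2, the transcription factor of the antioxidant response, was at 34.9 and 43.7 CPM against 129 and 76.2 CPM (1.39 ± 0.37), and Eda2r, a p53-induced receptor of the TNF family, was at 0.854 and 0.524 CPM against 2.27 and 5.49 CPM (2.47 ± 0.84). Each was the only DEG of its list, in which 6 of 24 and 8 of 19 genes had a positive value.

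Genes lower at 39 weeks, after the germ cell transcripts had been set aside, included genes of motile cilia and of duct epithelium. Of the 261, 72 had no count in either CCC mouse, and 235 had both CCC mice below both CC_l mice (17.4% of all tested genes). Being called lower in these same mice already favours that lack of overlap. Cfap65, a protein of the ciliary axoneme (chr1:74902071-74935599, minus strand, mm10), was at 48.8 and 18.9 CPM in the CC_l mice and without a count in the CCC mice. By group means it was at least 197-fold lower with 3 counts in each CCC library as the limit. Ccdc40, which sets the spacing of the axoneme, was at 13.8 and 2.10 CPM and without a count in CCC. By group means it was at least 46.2-fold lower, with most of the CC_l mean from replicate 1. Dnah6, a dynein heavy chain, was at 30.4 and 9.69 CPM against 0.239 and 0.439 CPM (-5.86 ± 1.22), and Drc3, of the dynein regulatory complex, at 14.03 and 4.52 CPM against 0.0597 and 0.384 CPM (-5.34 ± 1.22). In all 4 genes CC_l replicate 1, the library with germ cell RNA, was the higher one. CC_l replicate 2, without it, was also above both CCC mice, but the rule for naming these genes required that. Zmynd10, a dynein assembly factor, leaned further on the first mouse, at 52.0 and 2.10 CPM against no count in CCC. Ift74, of the intraflagellar transport complex, was at 69.5 and 13.1 CPM against 6.81 and 5.87 CPM (-2.70 ± 0.61, and -1.05 without CC_l replicate 1).

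To describe this beyond single genes, 2 lists were written after the values had been seen, so their counts are a description only. Of 68 tested genes of motile cilium families (axonemal dyneins, their assembly factors, radial spokes, Cfap and Drc genes and Foxj1), 34 were DEGs downwards, 10 of them among the genes set aside, and 53 did not overlap downwards, with a median of -4.92 that was -2.37 without CC_l replicate 1. The list summed to 2367 and 455 CPM in CC_l and to 302 and 160 CPM in CCC. Over all tested genes 1.91% were DEGs downwards and 17.4% did not overlap downwards. Several of these genes also serve the sperm flagellum. Foxj1, the master transcription factor of motile cilia, was at 6.47 and 1.57 CPM in CC_l and at 0.119 CPM and no count in CCC (-5.98 ± 1.98). Of 26 genes of duct and tubule epithelium, 10 were DEGs and 23 did not overlap downwards, with a median of -3.46 that was -3.69 without CC_l replicate 1, and the sums were alike in the CC_l mice (143 and 139 CPM) and lower in the CCC mice (20.7 and 42.4 CPM). Epcam, an adhesion molecule of epithelia, was at 16.6 and 9.56 CPM against 0.358 and 0.220 CPM (-5.48 ± 1.52). Prom1 was at 37.2 and 25.1 CPM against 0.717 and 3.02 CPM (-4.05 ± 1.02), and Cdh16, a cadherin of mesonephric derivatives, at 3.23 and 6.02 CPM against 0.119 and 0.1098 CPM (-5.26 ± 1.56). Both CC_l mice thus held RNA of this list, but its genes were chosen with these values known, and the source of the RNA was not tested. The C mice held 66.1 to 918 CPM of the epithelial list and the CC_s mice 18.5 to 81.5 CPM. Epididymal epithelium genes, with 24 tested and none called, followed the duct list only in part. They summed to 87.4 and 5.24 CPM in CC_l, unlike the even duct sums there, and to 1.19 and 1.54 CPM in CCC. C replicate 1, the library with the most duct RNA, held 2124 CPM of them. C replicate 2 held 40.5 CPM of them beside 365 CPM of the duct list. Their median was -3.39, but 0.00 without CC_l replicate 1, and their part in the result was not tested.

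**Figure D4:**
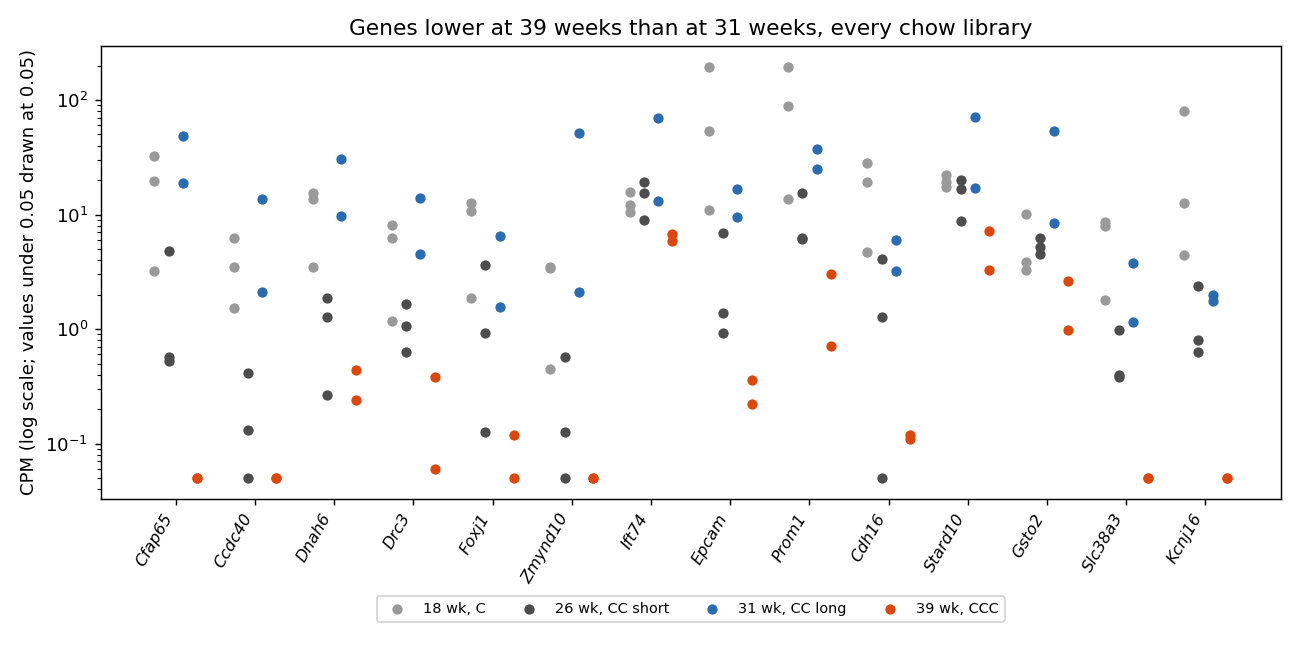
CPM (log scale, values under 0.05 drawn at 0.05) of 14 genes called lower at 39 than at 31 weeks in each of the 10 chow libraries, 1 point per mouse, coloured by age group. The 39-week points lie below both 31-week points for each gene, and the 18-week mice span values as high as or higher than the 31-week mice for the epithelial genes Epcam, Prom1 and Cdh16.

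Other named lower genes are given apart from these groups, and whether they belong with them was not tested. Stard10, a lipid transfer protein of epithelia and liver, was at 70.6 and 17.2 CPM in CC_l and at 7.17 and 3.29 CPM in CCC (-3.07 ± 0.66, and -1.71 without CC_l replicate 1). Gsto2, a glutathione transferase, was at 53.9 and 8.51 CPM against 2.63 and 0.988 CPM (-4.11 ± 0.94, and -2.23 without CC_l replicate 1). Slc38a3, a glutamine transporter, was at 1.16 and 3.80 CPM and Kcnj16, a potassium channel, at 1.77 and 1.96 CPM, and neither had a count in CCC. Like Epcam and Cdh16, both were higher in C than in CC_s. Slc38a3 was at 1.79 to 8.60 CPM in C and 0.380 to 0.983 CPM in CC_s, and Kcnj16 at 4.39 to 80.2 CPM and 0.634 to 2.38 CPM. Hk1, hexokinase 1, was called lower (-3.14 ± 0.95), but it was at 101 CPM in CC_l replicate 1 alone and at 6.94, 5.86 and 6.37 CPM in the other 3 mice, and was -0.18 without that library. Xrra1, at 62.2 CPM in CC_l replicate 1 and 1.31 CPM in replicate 2, against 0.239 and 0.220 CPM, was likewise highest in that library (-7.08, and -2.48 without it). No gene of the lists for lipid storage, lipolysis, oxidation or adipokines was called lower.

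To place the change among the chow groups, both ages were set against the 6 short-arm chow mice, whose library labels carry another prefix, so that age, arm and whatever the prefix marks cannot be told apart in this placement. Of the 162 higher DEGs, 106 had both CC_l mice below all 6 short-arm mice, whereas 21 had both CCC mice above all 6. Over all tested genes the numbers were 1293 and 1016 of 21464. For 47 of the 162 both CCC values lay inside the short-arm range, against 10673 of all tested genes. Ythdf3 was at 78.9 to 109 CPM in the C mice and 89.8 to 96.0 CPM in the CC_s mice, around the 2 CCC values, and Col14a1 was at 15.2 to 27.7 CPM and 19.1 to 19.7 CPM. Csf1r was of the other kind, with the 2 CCC mice (47.0 and 73.9 CPM) above the 14.6 to 24.3 CPM of the C mice and the 10.9 to 16.4 CPM of the CC_s mice and the CC_l mice inside or near that range (22.1 and 18.9 CPM). Of the 261 lower DEGs, 29 had both CC_l mice above all 6 short-arm mice and 64 had both CCC mice below all 6, against 1336 and 569 of all tested genes. Both sets of DEGs were called on these same CC_l and CCC values. Their distance from the numbers over all tested genes is thus partly fixed by that choice, and the placement is a description only.

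The same 8-week step earlier in life, CC_s against C, shares no library with CCC against CC_l. It gave 127 DEGs upwards (0.592%) and 398 downwards (1.85%), and none at an adjusted p under 0.05 by edgeR. None of the 162 higher DEGs was a DEG upwards in the earlier step, 4 were DEGs in the opposite direction, and 41 (25.3%) had a positive value in it, against 42.1% of all tested genes. Their median was -0.39 in the earlier step. Of the 261 lower DEGs, 178 (68.2%) were also lower in the earlier step, against 56.3% of all tested genes, with a median of -1.36. Of all 410 lower DEGs, set-aside germ cell genes included, 40 were DEGs downwards in both. How many of the 40 are germ cell genes was not counted. The germ cell list summed to 159 to 474 CPM in C and to 136 to 160 CPM in CC_s. The difference between both steps was tested as an interaction. No gene passed an adjusted p under 0.05 by edgeR (lowest adjusted p = 0.317), against 455 by DESeq2, and 2772 genes (12.9%) had an unadjusted p under 0.05. Of the 162 higher DEGs 148 were among these, and of the 261 lower DEGs 152, but all were chosen for their value in the later step. The earlier step went the other way for progenitor markers (median -0.58, 3 of 17 positive), collagens (-0.58, 3 of 28), macrophage markers (-0.53, 2 of 15) and mesothelial markers (-1.60, 0 of 12), while clock and immediate-early genes were near 0 in it (-0.06 and -0.05) and duct epithelium genes had negative values in it too (-3.18, 0 of 26). Nuclear-retained RNA (-1.43, 0 of 12) and mitochondrially encoded RNA (-1.72, 2 of 28) also had negative medians in the earlier step. C replicates 1 and 2 held 30527 and 37965 CPM of nuclear-retained RNA, against 4934 CPM in C replicate 3 and 4031 to 9521 CPM in CC_s, and their adipocyte identity genes summed to 57232 and 65636 CPM, against 187370 CPM and 129290 to 151700 CPM. The part of these libraries in the medians was not tested.

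**Figure D5:**
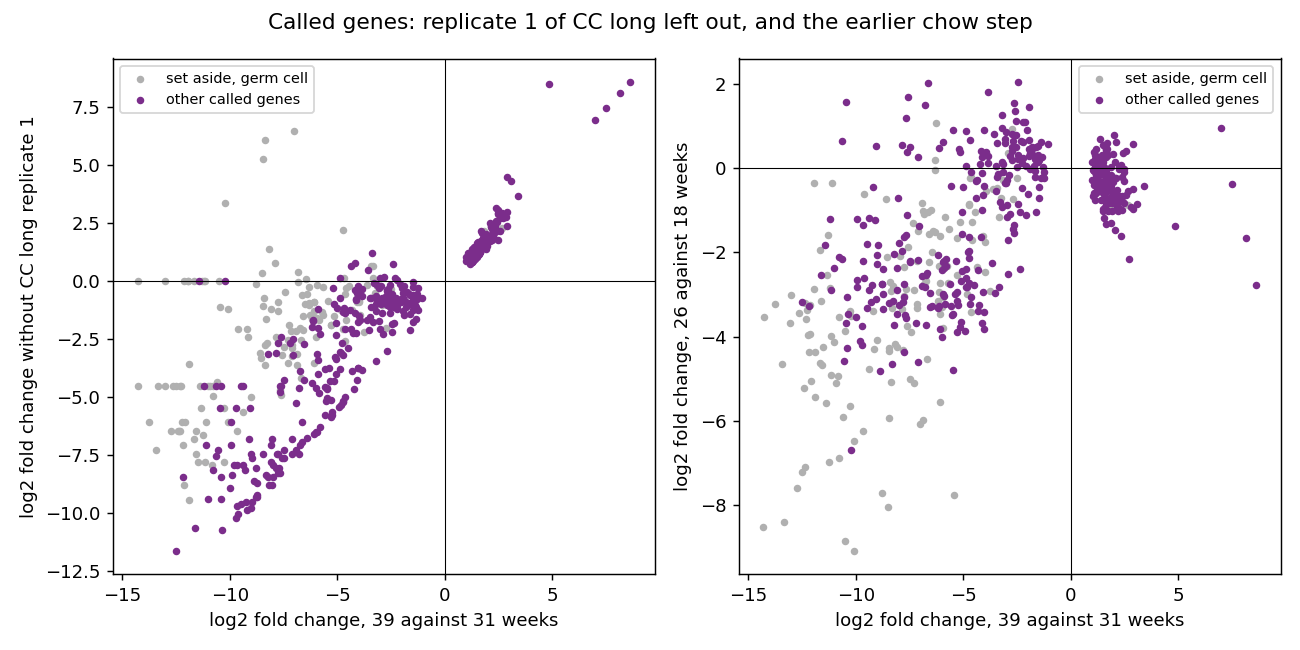
Log2 fold change at 39 against 31 weeks of the 572 called genes (x axis) against the value without CC_l replicate 1 (left) and against the earlier step, 26 against 18 weeks (right), with germ cell genes that were set aside in grey and others in purple. Without that mouse 137 of the 162 higher genes keep a log2 fold change of at least 1, and in the earlier step their median is -0.39, and many lower genes lie below 0 in both steps.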

How the data were processed

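TRAP–seq counts of 20 mice were used, in 8 groups of 3 (short arm) or 2 (long arm). According to the methods and the labels, the authors trimmed reads with Trim Galore 0.6.6, aligned them to mm10 with HISAT2 2.2.1 and deposited featureCounts (Subread 2.0.1) read counts without normalization, whole numbers for 46078 genes. Annotation, strand and pair handling are not given in the sources used here, so overlapping genes may share reads. In the 4 libraries compared, 91.0% to 93.5% of low counts were even, so fragments may be fewer than counts. Symbols came from GENCODE vM21.

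Genes passing filterByExpr were TMM-normalized and tested with edgeR 4.0.16 (quasi-likelihood, all 20 libraries in 8 groups, R 4.3.3). DEGs were called at a nominal p under 0.01 with a |log2 fold change| of 1 or more. CPM and log2 fold changes were computed from the deposited counts. A lower bound of a fold set the mean of the higher group against the mean CPM of 3 counts a library, so single mice can lie below it. With 2 mice a side, p-values rest on the spread of all groups. Genes were named by rule, germ cell genes apart: the 12 lowest p and 6 largest changes in each direction among protein or named RNA genes with at least 1 CPM, no overlap and a |log2 fold change| of 1 or more without each mouse, then the DEGs and the 4 most abundant members of each gene list, and 5 germ cell genes. Members and lists were chosen with earlier results of these data known. The test was checked on simulated data. Promoters came from RefSeq. Alternatives were DESeq2 1.42.0, other scalings, filters, fits and left-out mice. Figures were drawn with matplotlib 3.10.9.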

Additional observations from a re-analysis of the deposited data

Results flagged for a closer look

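By edgeR's quasi-likelihood test 0 genes passed an adjusted p under 0.05 for a difference between the 39 against 31 week step and the 26 against 18 week step, against 455 by DESeq2, and 2772 had an unadjusted p under 0.05. The mean log2 CPM of 3 of the gene lists moved in opposite ways in every mouse of the 2 steps, which was not tested. The mesothelial list was 0.72 higher in CCC than in CC_l, with the CCC mice at 3.07 and 4.49 and the CC_l mice at 3.06 and 3.06, so that replicate 2 of CCC carried the difference, and it was -1.70 in CC_s against C. The T, B and NK cell list was 0.72 higher in CCC, at 1.06 and 1.41 against 0.01 and 1.02, and -1.36 in CC_s against C. The list of glucocorticoid action genes, with Fkbp5 and Tsc22d3 among its members, was -0.50 in CCC against CC_l, at 5.90 and 5.99 against 6.31 and 6.60, and 0.51 in CC_s against C.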

How the results depend on the processing

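The 572 DEGs of CCC against CC_l (162 higher, 410 lower, 261 lower with germ cell genes set aside) rested on the test and on single mice. DESeq2 gave 1021 (263, 758 and 560), the likelihood ratio test 1125 (266, 859 and 497), no filter on low counts 1924 (413, 1511 and 631), a fit of only the 4 compared libraries 79 (17, 62 and 58) and of the long arm 348 (63 higher, 116 lower outside the germ cell genes). A nuclear-retained RNA covariate gave 2200 (397, 1803 and 835), a mesothelial covariate, chosen after seeing the data, 996 (880 lower, 404 outside the germ cell genes), halved counts 100 higher, and an adjusted p in place of the nominal one 0. The replicate block gave 288 (94, 194 and 152), but replicate numbers do not pair these mice (correlation of deviations 0.0133), and CC_s against C gave 304 with it. Leaving out 1 mouse gave 126 (CC_l replicate 1) to 942 (CC_l replicate 2) DEGs, with 41 to 352 higher, 85 to 819 lower and 70 to 439 lower outside the germ cell genes. Adjusted calls, 0 by the quasi-likelihood test, were 492 by DESeq2, 213 by the likelihood ratio test, 1188 without the filter, 1069 with the nuclear and 2 with the mesothelial covariate, and 0 to 65 with 1 mouse left out. CC_s against C, 525 DEGs, gave 1394, 1140 and 2006 by DESeq2, the likelihood ratio test and no filter, 204 and 36 with the nuclear and mesothelial covariates, and 127 to 2185 with 1 mouse left out (without C replicate 1 and C replicate 3). The difference of both steps, 0 adjusted calls, gave 455, 35 and 850 by those 3 tests. Germ cell genes held 149 lower DEGs at a correlation of 0.7, 240 at 0.5 and 50 at 0.9. The 54 called genes named kept their direction under all 15 settings run, and 14 (a fit of only the compared libraries) to 54 (likelihood ratio test) of them were still called. For genes named by lowest p or largest change, the naming rule had already required the same direction without each of the 4 mice.

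Depth limits the low genes: a count of 0 allows up to 0.196 CPM in CC_l replicate 2, the highest such limit of the 4 libraries, for counting error only. The set-aside genes were chosen by correlation over 16 libraries, in which HC replicate 3 is high in germ cell and in nuclear RNA, and how many of them are germ cell genes was not tested.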
